A study of Rattus norvegicus with 4 samples.

Results

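Genes for the movement of ions, bicarbonate, metals and water were followed in the epithelium around a titanium implant and the epithelium around a tooth. The members were the genes whose probe sets carried a single symbol from 14 solute carrier families (Slc4, Slc8, Slc9, Slc11, Slc12, Slc13, Slc20, Slc24, Slc26, Slc30, Slc34, Slc39, Slc40 and Slc41), the aquaporins, Na/K-ATPase subunits, subunits of the epithelial sodium channel ENaC, Clca and bestrophin genes, carbonic anhydrases other than Car9, and Cftr and Ano1. This gave 112 members of 14217 genes measured, each read from the brightest of its probe sets (by the mean of 4 arrays). Slc4a1ap was taken in by its name and encodes an adaptor protein, not a transporter.

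RNA was measured on Affymetrix rat arrays, 2 of peri-implant epithelium and 2 of junctional epithelium, both captured by laser microdissection from male Sprague-Dawley rats. Peri-implant epithelium seals the gum to a titanium alloy implant set in the socket of an extracted upper molar, and junctional epithelium seals the gum to the tooth. All 4 arrays carry the same treatment label of extraction and implantation, with surgery at 4 weeks of age and tissue taken 4 weeks later from 20 rats. The labels do not say whether an array holds 1 animal or a pool, so p-values measure only the spread between these arrays, and 2 arrays a group limit the precision of every value.

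Epithelia move salt with a sodium pump in the basolateral membrane, sodium and chloride channels at the surface, and exchangers that carry bicarbonate and protons. Water follows through aquaporins, and carbonic anhydrases turn carbon dioxide into bicarbonate and acid. In the metal families, Slc39 proteins bring zinc and other metals into the cytosol, Slc30 proteins move zinc out of it, Slc11a2 takes up ferrous iron and Slc40a1, ferroportin, is the iron exporter. Stratified oral epithelium is known for the glycerol-carrying water channel Aqp3 in its lower layers.

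All values are log2 signals. Background was set at 6.42, the largest value that any of 27 bacterial spike-in probe sets reached, and between 54.6% and 56.8% of the rat probe sets exceeded it on each array. The general epithelial markers Krt5, Krt14, Cdh1, Epcam, Krt19 and Tp63 were above it on every array and none of these 6 passed the test between the epithelia. Of the enamel organ and junctional epithelium proteins listed, Ambn and Amelx were measured and lay below background throughout (highest signal 4.77), so they do not show the identity of the junctional arrays. Marker sums below add linear signals over a list. The 4 measured markers of keratinizing epithelium summed to 6757 and 7180 on the peri-implant arrays, against 29809 and 27412 on the junctional arrays, and 3 of them (Krt1, Krt10 and Loricrin) fell. On the junctional arrays Krt10 was 12.97 and 12.98, and Loricrin was 14.24 and 14.07. The name junctional therefore rests on the labels alone, and how much keratinizing epithelium these arrays held was not tested. Of 7 neutrophil markers 5 rose (S100a8, S100a9, Cxcr2, Csf3r and Fcgr3a), while Ly6g6e did not pass and Mmp8 lay below background throughout. The sums over all 7 were 103703 and 90240 on the peri-implant arrays, against 38625 and 38989 on the junctional arrays. S100a8 and S100a9 made up most of these sums, which therefore say little about the other markers. On the peri-implant arrays S100a8 was 15.72 and 15.51, while Cxcr2, the brightest after S100a8 and S100a9, was 10.95 and 10.96. All 6 fibroblast markers were above background on every array, and of these Col1a1 rose and Pdgfra fell. Their sums were 49283 and 49043 on the peri-implant arrays, against 43333 and 43546 on the junctional arrays. The captured tissue therefore gave signals of fibroblast genes as well as epithelial ones. Of 5 T cell markers 1, Cd2, rose. What part the keratinizing, neutrophil, fibroblast and T cell markers had in the transport gene differences was not tested. In such captured tissue, fewer cells of a type and less RNA per cell cannot be told apart.

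In peri-implant epithelium 6 of the 112 transport genes rose and 13 fell relative to junctional epithelium. The genes that rose were the water channel Aqp3, the iron exporter Slc40a1, the metal importer Slc39a11, the chloride channel Cftr, the membrane-bound carbonic anhydrase Car4 and the sodium bicarbonate cotransporter Slc4a4. Those that fell included the sodium pump chain Atp1b1, the ENaC chain Scnn1g, the Na-K-Cl cotransporter Slc12a2, the calcium-activated chloride channel Ano1, the carbonic anhydrases Car3, Car12 and Car14, and the citrate transporter Slc13a5. The iron importer Slc11a2 and the zinc transporters Slc30a4 and Slc39a13 fell as well. The remaining genes that fell, Slc4a1 and Slc8a3, were at or below background on all 4 arrays, a range in which signals carry no level. Slc4a1, the red cell anion exchanger, was 0.29 and 2.38 on the peri-implant arrays, against 6.21 and 6.19 on the junctional arrays. Slc8a3, a sodium calcium exchanger, was 0.97 and 1.27 on the peri-implant arrays, against 5.63 and 6.03 on the junctional arrays. Both lie outside the rule for giving array values and are given because they passed the test.

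The test was limma with a variance prior that follows intensity, adjusted over all 14217 genes with a threshold of 0.05 (two-sided). Adjusted p ran from 0.000233 for Aqp3 to 0.0487 for Car14. Over all genes 7.39% rose and 5.34% fell by this test, against 5.36% and 11.6% of the transport genes. The transport genes had a median difference of -0.20, against 0.05 over all genes, and 63.4% of them had a negative difference, against 46.2% of all genes. The arrays of the epithelia did not overlap for 23 members with higher and 42 with lower peri-implant signals, where such genes make up 31.2% and 25.2% of all genes. With limma's default prior 0 of 112 members and 0 of 14217 genes passed (smallest adjusted p = 0.0898), while 26 members and 2861 genes had an unadjusted p under 0.05. An exact permutation of 4 arrays cannot give a two-sided p below 0.333.

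**Figure D1:**
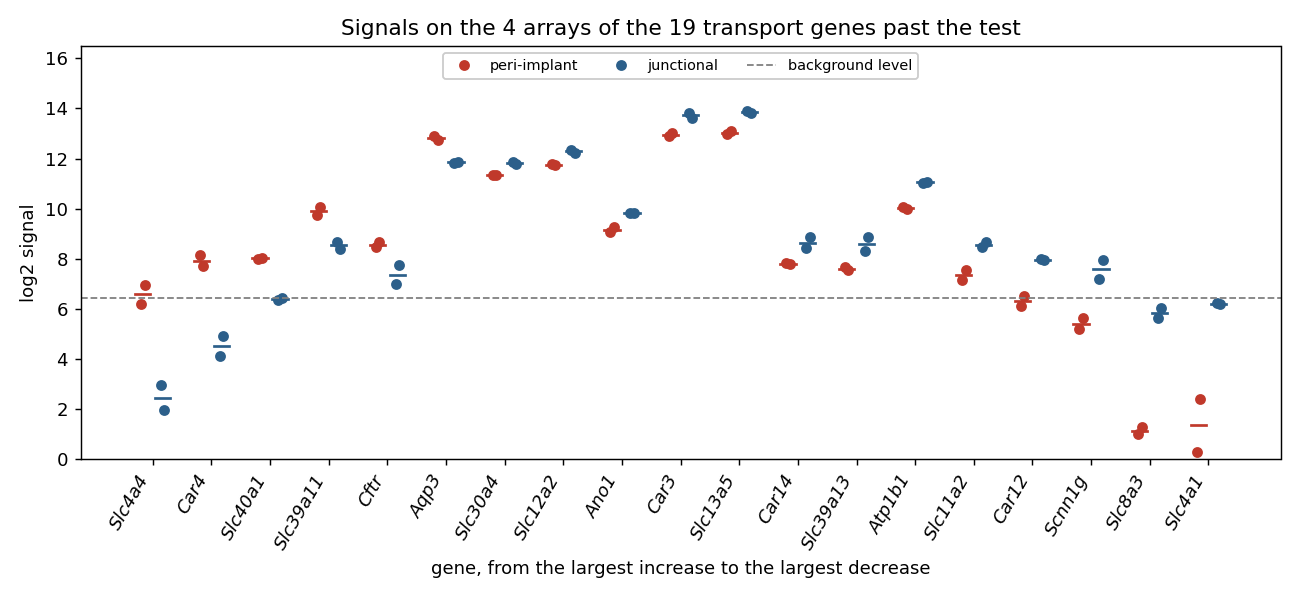
Log2 signal (vertical axis) of the 19 transport genes past the test, from the largest increase at the left to the largest decrease at the right. Points are single arrays, peri-implant left of junctional for each gene, short bars are the means of 2 arrays, and the dashed line is the background level of 6.42. Slc4a1 and Slc8a3 lie below the line on all 4 arrays, and the arrays of the epithelia do not overlap for any of the 19 genes.

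**Figure D2:**
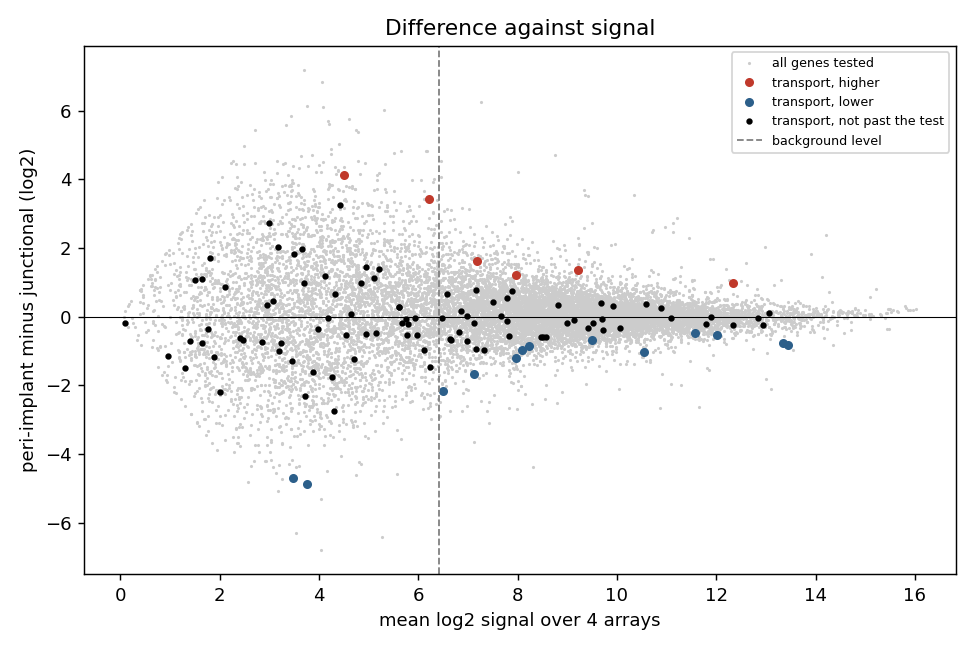
Peri-implant minus junctional difference (log2, vertical axis) against the mean log2 signal over the 4 arrays (horizontal axis), for all 14217 genes in grey and the 112 transport genes in red (6 higher), blue (13 lower) or black (93 not past the test). Differences spread widely left of the dashed background line at 6.42, where 49 transport genes stay on all 4 arrays.

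In the rat assembly GRCr8, Aqp3 lies on chromosome 5 from 61035165 to 61040683, Slc40a1 on chromosome 9 from 55525457 to 55633463, Slc39a11 on chromosome 10 from 98775155 to 99196302, and Atp1b1 on chromosome 13 from 79319708 to 79340226. Scnn1g lies on chromosome 1 from 185736225 to 185770099 and Cftr on chromosome 4 from 47422084 to 47694646. All of these are protein-coding genes.

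A total of 63 members exceeded background on at least 1 array, 46 on all 4, and 49 on none. These 49 include the aquaporins Aqp2, Aqp4, Aqp5, Aqp6, Aqp7, Aqp8, Aqp9 and Aqp12a, the ENaC chain Scnn1b, the pump chains Atp1a4 and Atp1b4, and the carbonic anhydrases Car5a, Car6, Car7, Car8, Car10 and Car11. Among anion and proton exchangers they include Slc4a1, Slc4a10, Slc26a1, Slc26a3, Slc26a5, Slc26a8, Slc26a10, Slc9a2, Slc9a3, Slc9a4 and Slc9a5. Among salt, chloride and calcium carriers they include Slc12a1, Slc12a5, Slc12a8, Best2, Clca1, Clca4, Slc8a3, Slc24a1 and Slc24a2. The others are Slc13a1, Slc13a2, Slc13a3, Slc13a4, Slc34a1, Slc34a2, Slc34a3, Slc30a2, Slc30a3, Slc30a10, Slc39a4 and Slc39a5. A signal at or below background is a limit of these arrays and does not show that a gene was silent in the tissue.

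Water channels were represented by Aqp3, Aqp1 and Aqp11. Aqp3, which carries water and glycerol, had signals of 12.90 and 12.75 on the peri-implant arrays, against 11.84 and 11.85 on the junctional arrays. Both peri-implant arrays stood above both junctional arrays, and arrays of a group lay close together. The difference was 0.98 ± 0.08 (adjusted p = 0.000233), and it lay between 0.90 and 1.06 when any 1 of the 4 arrays was left out. For this and all differences below, ± and SE give limma's moderated standard error, with n = 2 arrays each. That error is drawn toward the prior that follows intensity, so it is not the spread of a gene's own arrays alone. Aqp1, a water channel known from capillary endothelium and red cells, had a difference of -0.33 ± 0.15 that did not pass (adjusted p = 0.181). Of 5 measured endothelial markers 1, Plvap, fell, with sums of 1912 and 1631 on the peri-implant arrays, against 2113 and 2636 on the junctional arrays, and their part in the Aqp1 value was not tested. Aqp11, an intracellular aquaporin, exceeded background on 1 junctional array only and did not pass.

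The sodium pump moves sodium out and potassium in, and its beta chain carries the pump to the membrane. Atp1b1 was 10.08 and 9.97 on the peri-implant arrays, against 11.04 and 11.07 on the junctional arrays, a clear separation. It fell by 1.03 on the log2 scale (SE 0.11, adjusted p = 0.000682), or 2.04-fold, a call that held when any 1 array was left out (-1.08 to -0.97). Its other probe set gave a difference of -0.98. The related chain Atp1b3 was 13.11 and 13.12 on the peri-implant arrays, against 12.97 and 13.03 on the junctional arrays, and its difference of 0.12 ± 0.07 (95% interval -0.05 to 0.28) did not pass. Atp1b2 exceeded background on 1 peri-implant array only and did not pass.

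ENaC lets sodium in from the surface and is built from alpha, beta and gamma chains. The gamma chain gene Scnn1g was at 5.20 and 5.61 on the peri-implant arrays, against 7.20 and 7.95 on the junctional arrays. Both peri-implant arrays were below background and both junctional arrays above it, so Scnn1g was at least 2.23-fold lower (adjusted p = 0.0189), and its second probe set had the same direction (-1.64). The alpha chain gene Scnn1a had overlapping groups and a difference of 0.02 ± 0.32 (95% interval -0.70 to 0.74). Its second probe set had higher peri-implant signals without overlap and a difference of 0.59. Scnn1b, the beta chain gene, was below background on all arrays. The call of Scnn1g did not hold when any 1 array was left out (differences from -2.55 to -1.79, largest adjusted p = 0.164).

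Of 15 chloride and cation-chloride genes 1 rose and 2 fell, few genes to set against the 7.39% and 5.34% of all genes that rose and fell. Cftr, the cyclic AMP-gated anion channel mutated in cystic fibrosis, was 8.45 and 8.68 on the peri-implant arrays, against 6.97 and 7.75 on the junctional arrays. The junctional arrays differed from each other by more than the gap between the groups, and the rise of 1.20 ± 0.30, or 2.30-fold, passed with adjusted p = 0.0328. Slc12a2, which loads cells with chloride from the blood side, was 11.77 and 11.74 on the peri-implant arrays, against 12.36 and 12.22 on the junctional arrays. It fell by 0.53 (SE 0.09, adjusted p = 0.00555). Ano1, the calcium-activated chloride channel, was 9.05 and 9.27 on the peri-implant arrays, against 9.83 and 9.82 on the junctional arrays, and fell by 0.67 (SE 0.15, adjusted p = 0.0230). None of these 3 calls held when any 1 array was left out, where the differences ran from 0.82 to 1.59 for Cftr, from -0.60 to -0.46 for Slc12a2 and from -0.78 to -0.55 for Ano1.

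The other 6 chloride and cation-chloride members above background did not pass. Clca2, of the calcium-activated chloride channel regulator family, was 12.00 and 11.79 on the peri-implant arrays and 11.89 and 11.91 on the junctional arrays, with a difference of 0.00 ± 0.09 (95% interval -0.21 to 0.21). The potassium chloride cotransporters Slc12a4 and Slc12a7 had differences of -0.58 ± 0.20 and -0.14 ± 0.25, and Slc12a9, a relative of these carriers, of -0.72 ± 0.39. Clca4l had a difference of 0.44 ± 0.30, and Slc12a3, the thiazide-sensitive cotransporter of kidney, exceeded background on 1 peri-implant array only.

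Bicarbonate and acid handling gave 2 genes that rose and 4 that fell, of 35, with Slc4a1, below background throughout, among the 4. Over all genes 7.39% rose and 5.34% fell. Car4, a carbonic anhydrase anchored to the outer face of the membrane, was 8.14 and 7.71 on the peri-implant arrays, against 4.11 and 4.90 on the junctional arrays. Signal was above background on both peri-implant arrays and on neither junctional array, so it was at least 2.83-fold higher (adjusted p = 0.00435). Its other probe set was below background on all arrays, and the mean of both did not pass (difference 1.75, adjusted p = 0.293). The call was lost without peri-implant array 1 (difference 3.21, adjusted p = 0.101) and without peri-implant array 2 (difference 3.63, adjusted p = 0.0721). Slc4a4, which carries sodium and bicarbonate together, was 6.20 and 6.94 on the peri-implant arrays, against 2.97 and 1.93 on the junctional arrays. Only 1 of its 4 values exceeded background, so its rise (adjusted p = 0.0303) has no fold, and the call was lost with low signals raised to background (difference 0.26, adjusted p = 0.439).

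Other carbonic anhydrases fell. Car12, also bound to the outer membrane face, was 6.10 and 6.49 on the peri-implant arrays, against 7.99 and 7.93 on the junctional arrays. Of the 4 arrays only peri-implant array 1 was below background, and Car12 was at least 2.84-fold lower (adjusted p = 0.0138). Car14, another membrane-bound form, was 7.81 and 7.78 on the peri-implant arrays, against 8.42 and 8.87 on the junctional arrays, and fell by 0.85 (SE 0.24, adjusted p = 0.0487). Car3, a cytosolic form known from skeletal muscle and fat, was 12.89 and 13.03 on the peri-implant arrays, against 13.84 and 13.62 on the junctional arrays, and fell by 0.77 (SE 0.09, adjusted p = 0.00138). Its second probe set gave -0.94, and only without junctional array 1 did Car3 miss the threshold (difference -0.66, adjusted p = 0.0640). Of 6 skeletal muscle markers 1, Tnnt3, exceeded background on any array, and their sums were 114 and 216 on the peri-implant arrays, against 71.2 and 143 on the junctional arrays. Car12 and Car14 lost their calls when any 1 array was left out (differences from -1.86 to -1.47 and from -1.08 to -0.62). Car14 also missed the threshold with low signals raised to background (-0.85, adjusted p = 0.0501) and in the mean of its probe sets (-0.54, adjusted p = 0.516).

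Car2, the widespread cytosolic carbonic anhydrase, was 12.35 and 12.08 on the peri-implant arrays and 12.39 and 12.54 on the junctional arrays (difference -0.25 ± 0.10, adjusted p = 0.158), and its second probe set had the opposite direction, 0.21. Car5b, a mitochondrial form, was 12.84 and 12.82 on the peri-implant arrays and 13.10 and 13.05 on the junctional arrays, without overlap, and did not pass (difference -0.24 ± 0.07, adjusted p = 0.0623). Its second probe set gave -1.03, and the mean of both passed (-0.64, adjusted p = 0.00198). Car5b also passed with quantile normalization, median centring and a filter on low signals. Car1, abundant in red cells, was below background on both peri-implant arrays and above it on both junctional arrays. Its measured peri-implant signals were at least 1.51-fold lower, a bound that is not a confidence limit. The difference of -0.69 ± 0.39 did not pass (adjusted p = 0.292), so a fall of Car1 was not established. Of 5 measured red cell markers 0 passed the test, with sums of 12848 and 12281 on the peri-implant arrays, against 14962 and 14796 on the junctional arrays. Hbb made up most of these sums, which therefore say little about the other markers. Alas2 and Ahsp had differences of -0.71 and 0.09, and Rhag and Epb42 were below background on all arrays. The part of these markers in the Car1 and Slc4a1 signals was not tested.

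Among the exchangers, 0 of 6 Slc9 and 0 of 8 Slc26 members passed, and 4 and 5 of these were below background on all arrays. Of 8 Slc4 members the only calls were Slc4a4 and Slc4a1. Over all genes 12.7% passed, and these families are small to set against that share. The chloride bicarbonate exchanger Slc4a2 had a difference of 0.41 ± 0.15 and the sodium bicarbonate carrier Slc4a7 of -0.33 ± 0.14. The second probe set of Slc4a7 gave -1.55, and the mean of both passed the test. Slc4a3 was below background on both peri-implant arrays, and its measured signals there were at least 1.46-fold lower, which is not a confidence limit. Its difference of -0.64 ± 0.42 did not pass (adjusted p = 0.354), so a fall of Slc4a3 was not established. Slc4a11 and Slc4a1ap had differences of -0.05 ± 0.46 and -0.58 ± 0.25. Slc9a8, a sodium proton exchanger of the Golgi, had a difference of -0.98 ± 0.31 (adjusted p = 0.0684) and passed when low signals were filtered out or raised to background. Slc9a9, of endosomes, had a difference of -0.45 ± 0.38. The sulfate carrier Slc26a2 (-0.60 ± 0.21), pendrin, Slc26a4 (0.67 ± 0.44), and the anion exchanger Slc26a6 (0.18 ± 0.37) did not pass.

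**Figure D3:**
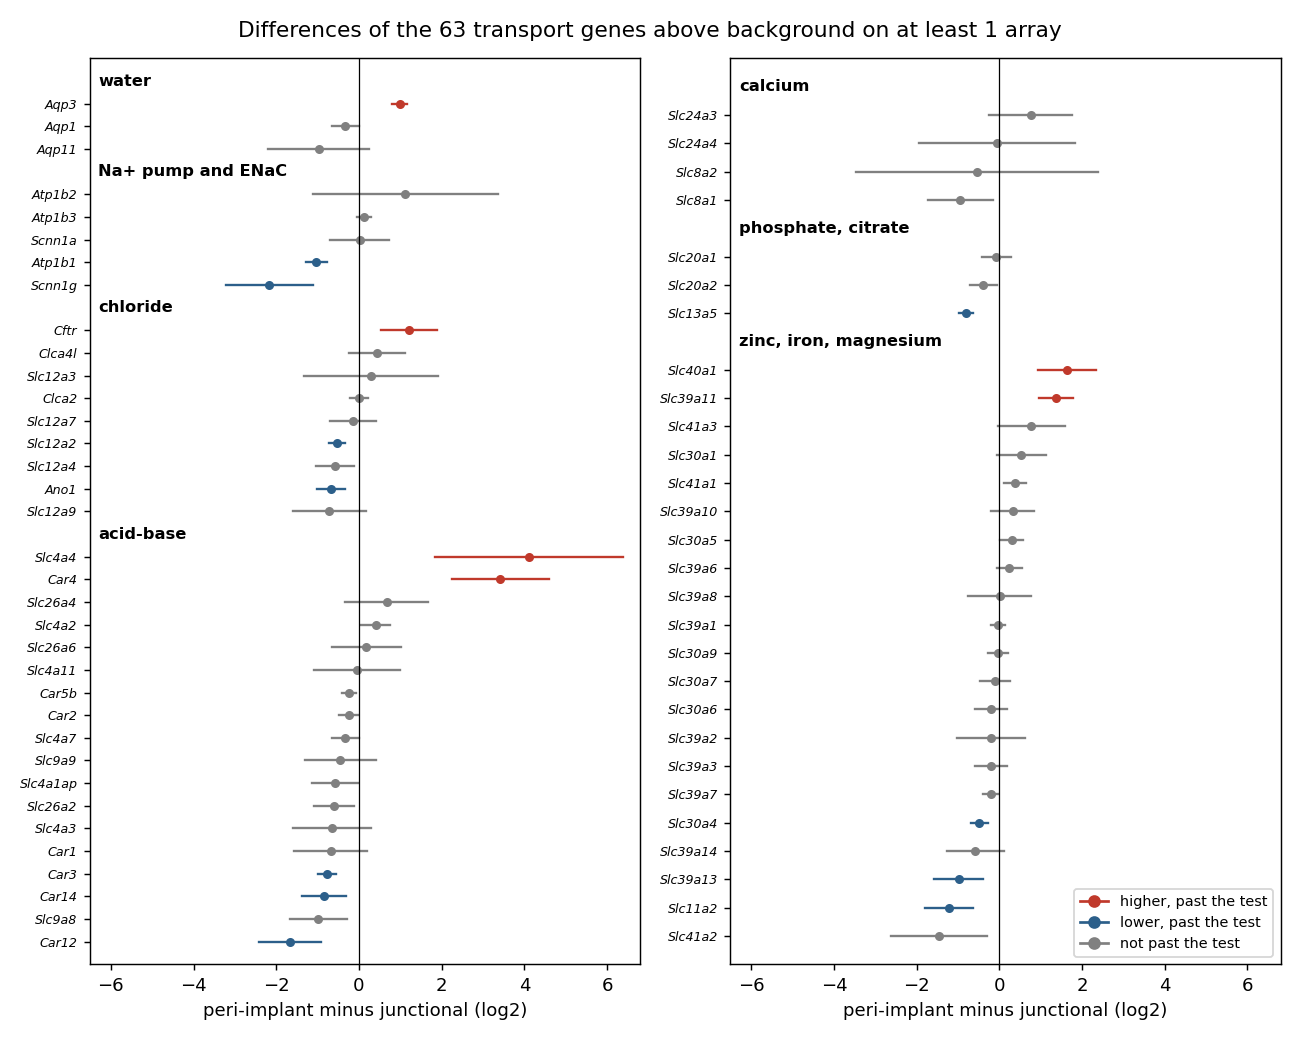
Peri-implant minus junctional difference (log2, horizontal axis) of the 63 transport genes above background on at least 1 array, by role. Points are differences of the means of 2 arrays each, lines are 95% intervals from limma with an intensity trend, and red and blue mark genes past the test. In the metal families 2 genes rose and 3 fell, while 16 others did not pass.

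Of 7 calcium carriers 1 fell, and of 10 phosphate, citrate and sulfate carriers 1 fell, while 0 rose in either set. Over all genes 7.39% rose and 5.34% fell. Below background on all arrays were 3 and 7 of these members. The fallen calcium carrier, Slc8a3, was among them, so Slc13a5 was the only call with a measured level. Slc13a5, which takes up citrate from outside the cell, was 12.98 and 13.10 on the peri-implant arrays, against 13.88 and 13.82 on the junctional arrays. It fell by 0.81 (SE 0.08, adjusted p = 0.000374), a call that held when any 1 array was left out (-0.87 to -0.75). Other sodium citrate and sulfate carriers of the family were below background. The phosphate carriers Slc20a1 and Slc20a2 had differences of -0.07 ± 0.15 and -0.39 ± 0.14 and did not pass, nor did the sodium calcium exchangers Slc8a1 (-0.94 ± 0.34) and Slc8a2. The second probe set of Slc20a2 had the opposite direction, 0.30, and that of Slc8a1 gave -0.21. Slc24a3, a potassium-dependent exchanger, had a difference of 0.76 ± 0.44 with overlapping groups, and -0.03 without junctional array 2. Slc24a4, known from enamel formation, exceeded background on 1 peri-implant array only.

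Of 26 metal carriers 2 rose and 3 fell, where 7.39% of all genes rose and 5.34% fell, so the share that rose is near that of all genes and the share that fell rests on 3 genes. The promoters of the 5 metal carriers past the test are shown because 2 of these genes rose and 3 fell. Metal-responsive factor Mtf1 binds the metal response element, searched here as TGCACNC or TGCGCNC on both strands. Each line holds the 250 bases before a RefSeq start site in GRCr8, read 5′ to 3′ on the gene's strand, and capitals mark matches, which may overlap.
Slc40a1 (chr9:55543461-55543710, minus strand): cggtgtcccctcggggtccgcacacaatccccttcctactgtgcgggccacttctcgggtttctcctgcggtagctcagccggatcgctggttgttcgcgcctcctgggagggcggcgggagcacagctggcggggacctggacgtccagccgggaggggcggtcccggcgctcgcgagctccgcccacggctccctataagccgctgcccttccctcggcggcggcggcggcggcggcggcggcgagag
Slc39a11 (chr10:99110457-99110706, minus strand): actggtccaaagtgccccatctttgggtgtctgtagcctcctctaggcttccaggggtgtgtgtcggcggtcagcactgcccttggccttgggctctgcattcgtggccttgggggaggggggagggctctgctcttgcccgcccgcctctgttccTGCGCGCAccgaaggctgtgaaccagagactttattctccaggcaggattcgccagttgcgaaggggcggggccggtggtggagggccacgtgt
Slc39a13 (chr3:97503045-97503294, minus strand): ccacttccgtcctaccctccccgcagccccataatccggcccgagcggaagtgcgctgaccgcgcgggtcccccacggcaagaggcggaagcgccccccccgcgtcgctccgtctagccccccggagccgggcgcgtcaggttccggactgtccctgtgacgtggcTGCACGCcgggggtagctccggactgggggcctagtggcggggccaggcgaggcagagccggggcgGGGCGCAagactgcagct
Slc30a4 (chr3:130228889-130229138, minus strand): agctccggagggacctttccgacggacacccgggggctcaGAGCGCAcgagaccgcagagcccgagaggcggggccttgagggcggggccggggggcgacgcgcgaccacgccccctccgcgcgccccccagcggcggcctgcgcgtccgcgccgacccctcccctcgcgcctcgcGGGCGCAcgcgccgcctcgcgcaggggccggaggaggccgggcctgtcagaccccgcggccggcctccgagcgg
Slc11a2 start 1 (chr7:133417789-133418038, minus strand): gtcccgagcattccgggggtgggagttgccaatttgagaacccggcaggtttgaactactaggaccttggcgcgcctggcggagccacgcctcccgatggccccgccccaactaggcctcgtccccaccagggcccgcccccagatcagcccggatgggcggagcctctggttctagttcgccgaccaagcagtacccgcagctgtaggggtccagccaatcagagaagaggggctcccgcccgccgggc
Slc11a2 start 2 (chr7:133418940-133419189, minus strand): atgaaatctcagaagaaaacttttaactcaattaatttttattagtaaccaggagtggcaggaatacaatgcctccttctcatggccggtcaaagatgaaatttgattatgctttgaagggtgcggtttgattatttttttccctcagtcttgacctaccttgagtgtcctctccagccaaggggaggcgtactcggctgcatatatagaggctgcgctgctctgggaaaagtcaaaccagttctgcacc

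The motif was present in 20.6% of all 33469 windows of this length in the RefSeq table, and in 11 of 25 windows (44%) of the 21 metal carriers found there. Over all transport genes it was in 34 of 100 windows (34%). Slc39a11, which rose, held 2 overlapping matches, while Slc40a1, which also rose, held none. Of the genes that fell, Slc39a13 and Slc30a4 held 2 each and both Slc11a2 windows held none. The windows of the metallothionein genes Mt1 and Mt2A, textbook targets of Mtf1, held 6 and 4 matches. Of the metal carrier windows shown, only that of Slc30a4 lies just upstream of the annotated span of its gene. The windows of Slc40a1, Slc39a11, Slc39a13 and Slc11a2 lie inside those spans, so the upstream ends of these genes were not searched. These are matches of letters, and binding was not measured.

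Slc40a1, the only known cellular iron exporter, was 8.001 and 8.013 on the peri-implant arrays, against 6.34 and 6.42 on the junctional arrays. The junctional arrays lay just under the background level, and Slc40a1 was at least 3.004-fold higher (adjusted p = 0.0116), with differences of 0.93 and 1.21 from its other probe sets and a mean over all 3 that did not pass (1.26, adjusted p = 0.0629). Slc11a2, which brings ferrous iron into the cytosol, was 7.15 and 7.56 on the peri-implant arrays, against 8.47 and 8.66 on the junctional arrays. It fell by 1.21 (SE 0.26, adjusted p = 0.0182), or 2.31-fold, but its other probe set gave 0.23, with 7.05 and 7.17 on the peri-implant arrays and 6.58 and 7.18 on the junctional arrays. The mean of both probe sets did not pass (difference -0.49, adjusted p = 0.332).

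Ferroportin is abundant in macrophages that recycle iron. Of 8 macrophage and dendritic cell markers, Csf1r and C1qc rose and Mrc1 fell. Their sums were 4644 and 5359 on the peri-implant arrays, against 3454 and 3099 on the junctional arrays, and their part in the Slc40a1 difference was not tested. Neither iron carrier held its call when any 1 array was left out (1.59 to 1.67 for Slc40a1 and -1.411 to -1.001 for Slc11a2).

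Slc39a11, a zinc importer, was 9.74 and 10.06 on the peri-implant arrays, against 8.68 and 8.39 on the junctional arrays. Both peri-implant arrays stood more than 1 log2 unit above both junctional arrays, and the rise was 1.36 ± 0.18, or 2.57-fold (adjusted p = 0.00239). It missed the threshold without peri-implant array 2 (1.20, adjusted p = 0.0613) and without junctional array 2 (1.22, adjusted p = 0.0593). Slc39a13, a zinc carrier of the early secretory pathway, was 7.66 and 7.54 on the peri-implant arrays, against 8.30 and 8.87 on the junctional arrays, and fell by 0.98 (SE 0.26, adjusted p = 0.0413). Slc30a4, which loads zinc into vesicles and, in mice, into milk, was 11.34 and 11.32 on the peri-implant arrays, against 11.86 and 11.77 on the junctional arrays. It fell by 0.48 (SE 0.09, adjusted p = 0.00902), while its second probe set was below background on all arrays and the mean of both did not pass (-0.66, adjusted p = 0.569). Neither of the last pair held its call when any 1 array was left out (-1.27 to -0.70 for Slc39a13 and -0.52 to -0.44 for Slc30a4).

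The remaining zinc carriers above background did not pass. Slc39a1, a plasma membrane importer, was 12.87 and 12.76 on the peri-implant arrays and 12.86 and 12.83 on the junctional arrays, with a 95% interval of the difference from -0.20 to 0.15. Slc39a7, which releases zinc from the endoplasmic reticulum, was 11.67 and 11.72 on the peri-implant arrays and 11.88 and 11.92 on the junctional arrays (difference -0.21 ± 0.08, adjusted p = 0.136). Slc39a2, Slc39a3, Slc39a6, Slc39a8, Slc39a10 and Slc39a14 had differences from -0.58 for Slc39a14 to 0.33 for Slc39a10. Other probe sets of Slc39a6 gave 0.75, without overlap of the arrays, and 0.33. The second probe sets of Slc39a14 and Slc39a3 had the opposite direction, 0.19 and 0.10. On the export side, Slc30a1 of the plasma membrane had a difference of 0.53 ± 0.26 and Slc30a5 of the secretory pathway one of 0.30 ± 0.12. Slc30a6, Slc30a7 and Slc30a9 lay between -0.19 and -0.03.

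Magnesium carriers of the Slc41 family gave no call with the main settings. Slc41a1, the plasma membrane member, had a difference of 0.38 ± 0.11 that did not pass (adjusted p = 0.0613), but passed with a prior without robust fitting, with a filter on low signals and with a replicate block. Slc41a2 was 5.07 and 5.92 on the peri-implant arrays, both below background, against 6.97 and 6.95 on the junctional arrays. Its measured fall of at least 1.46-fold did not pass (adjusted p = 0.0974). Slc41a3, a mitochondrial member, had a difference of 0.77 ± 0.36.

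**Figure D4:**
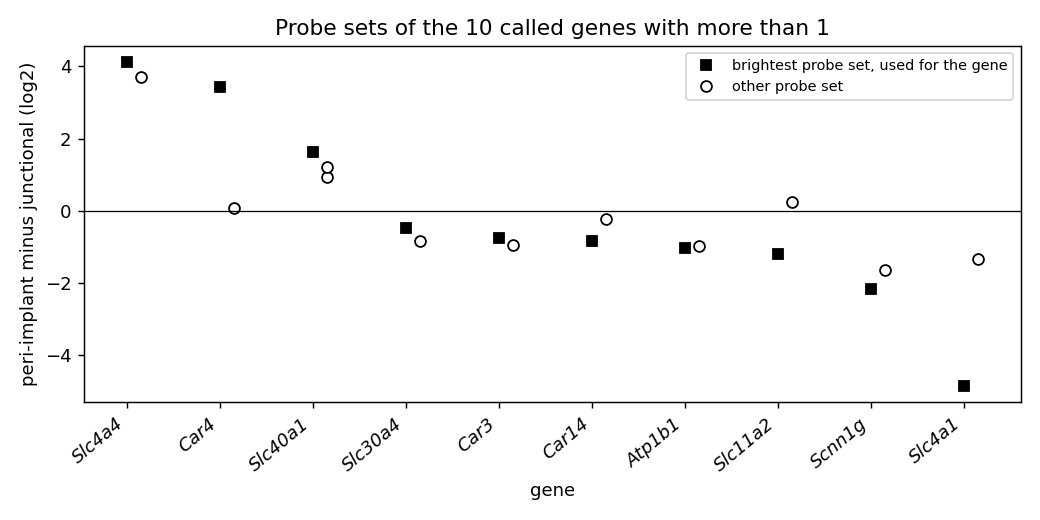
Peri-implant minus junctional difference (log2, vertical axis) of each probe set of the 10 genes past the test that have more than 1. Filled squares are the brightest probe set, used for the gene, and open circles the others. In 9 of the 10 genes all probe sets have 1 direction, and the exception is Slc11a2, where the second probe set stands at 0.23.

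Genes that work with the transporters were counted from lists of partners that are not members. These lists were chosen with earlier results of these data known, so their counts are not an independent test. In the zinc and copper list 5 of 10 measured genes rose and 0 fell, while over all genes 7.39% rose and 5.34% fell. Mt1, a metallothionein that binds zinc and copper, was 12.84 and 12.93 on the peri-implant arrays, against 11.50 and 11.48 on the junctional arrays (difference 1.40 ± 0.08). Mt2A rose by 1.08 ± 0.08, the copper importer Slc31a1 by 0.64 ± 0.16 and the copper pump Atp7a by 0.49 ± 0.12. The last of the 5, Slc31a2, rose by 0.40 ± 0.09. The list's median difference was 0.34, against 0.05 over all genes. In the iron list 2 of 15 measured genes rose and 2 fell, few genes to set against those shares, with a median of -0.13. Tfrc, the transferrin receptor, rose by 0.45 ± 0.12 and the metalloreductase gene Steap4 by 0.68 ± 0.11, while Heph, a ferroxidase that works beside ferroportin, fell by 0.65 (SE 0.09). Steap2 was 6.67 and 6.74 on the peri-implant arrays, against 8.28 and 8.54 on the junctional arrays, and fell by 1.70 (SE 0.28).

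In the list of ENaC control 1 of 10 genes fell, the protease gene Furin (-0.46 ± 0.07), and 0 rose. The lists of 8 measured WNK kinase pathway genes, 7 FXYD regulators of the sodium pump and 4 other proton and potassium pumps held 0 calls, with 1 gene each at an unadjusted p under 0.05, and medians of -0.26, -0.59 and 0.50. Among 29 other chloride channels, Clic1 rose by 0.31 ± 0.08, Clic3 fell by 0.64 (SE 0.11) and Lrrc8e fell by 0.38 (SE 0.10). Ano5 also passed, with 1 of its 4 values above background. Ano5 and Slc31a2 lie outside the rule for naming partners and were named after their values were seen, to complete these counts. Of 25 epithelial potassium and calcium transport genes 1, the calcium pump gene Atp2b4, fell (-0.58 ± 0.11). In the bicarbonate and acid list, of 8 measured genes, the lactate proton carrier Slc16a3 rose by 0.91 ± 0.11 and Ahcyl1, which encodes a partner of bicarbonate carriers, fell by 0.58 (SE 0.09). Over all genes 7.39% rose and 5.34% fell.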

How the data were processed

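The authors deposited log2 signals per probe set for 4 Affymetrix rat arrays. Per the labels' protocols, epithelium was laser-microdissected and its RNA amplified with a NuGEN Ovation kit, which can alter relative levels. The software and the normalization are not stated in those labels; each array's trimmed mean linear signal is 500, and 378 to 729 probe sets an array sit at a floor of 0. Log2 differences between dim probe sets are therefore large and unstable.

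Of 31042 probe sets that are no controls, 20826 carried 1 symbol in GEO's platform annotation, 436 several and 9780 none. The brightest probe set of each of 14217 genes was tested with limma 3.58.1 (R 4.3.3): lmFit, then eBayes with an intensity trend and a robust prior, with Benjamini-Hochberg adjustment over all genes at 0.05. Where an array of the lower group was at or below background, a fold is given as a bound, with that array raised to background. Such a bound describes the measured signals and is not a confidence limit. Log2 differences are as fitted. The script was tested on simulated data. The number of arrays limits the precision.

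Groups came from the sample labels. The members, lists, prior and naming rule were chosen with earlier results of these data known. Among members above background on at least 1 array, per-array values are given for those past the test, those at least 2-fold apart without overlap, and the 10 with the highest mean signal; partners past the test are named up to 4 a list. Alternatives were limma's default prior, a prior without robust fitting, quantile normalization, median centring, a filter on low signals, signals raised to background, the mean of a gene's probe sets, a replicate block, and leaving out each array. Promoter windows and coordinates came from RefSeq (GRCr8), in which all 112 symbols matched. No other upstream file was used here.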

Additional observations from a re-analysis of the deposited data

How the results depend on the processing

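Of the 19 calls, all 19 remained with a prior without robust fitting, quantile normalization, median centring and a replicate block, and 17 of 17 tested remained with a filter on low signals. With signals raised to background 15 remained, and with the mean of probe sets 13. With limma's default prior 0 members were called higher, 0 lower and 0 genes over all. When 1 array was left out, where the lone array of its group is assumed to vary like the others, 1 to 3 members were called higher, 2 to 3 lower and 241 to 398 genes over all, against 1810 with 4 arrays. Aqp3, Atp1b1 and Slc13a5 passed in all 4 of those fits, Car3 in 3, Car4 and Slc39a11 in 2, and the other 13 in 0. The members' median difference lay between -0.25 and -0.13 in every setting. Of 65 members examined under the alternatives, 13 turned direction in at least 1, none of them among the 19 calls, and no turned value passed. Quantile normalization gave 0.0255 for Clca2, -0.0584 for Slc39a8 and -0.0257 for Scnn1a, and median centring gave -0.0106 for Slc39a8. Raising signals to background gave 0.1173 for Slc4a11 and 0.232 for Slc24a4, and the mean of probe sets gave 1.0039 for Slc24a4 and 1.1503 for Slc12a7. With 1 array left out, differences spanned 0 for Clca2 (-0.106 to 0.1045), Slc39a1 (-0.0823 to 0.0264), Slc4a11 (-0.407 to 0.3114), Slc24a3 (-0.0304 to 1.5449), Slc24a4 (-1.2094 to 1.0984) and Slc8a2 (-2.2067 to 1.1193). They also did for Slc12a3 (-0.4278 to 1.0072), Slc30a9 (-0.1418 to 0.0731), Slc39a2 (-0.5396 to 0.1455), Slc39a8 (-0.0608 to 0.0754), Slc20a1 (-0.2264 to 0.0849) and Scnn1a (-0.331 to 0.3725). The cause was not tested. Both groups carry numbers 1 and 2. Deviations of same-numbered arrays from their group means correlated at 0.018 over all genes. Over the 8814 genes above background on 4 arrays the value was 0.055. These correlations cannot show whether same-numbered arrays share animals or a batch. The replicate block gave 7 members higher, 13 lower and 2470 genes over all. Signals near background limit 49 members to no level.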
